A study of Rattus norvegicus with 6 samples.

Results

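The genes of programmed cell death were examined in poly(A) RNA sequencing of rat brain: the BCL2 family, caspases with their activators and inhibitors, p53 targets, and the machinery of necroptosis and pyroptosis. The 36 genes were named one by one from their known roles, with earlier results of these data known. They were looked up by gene symbol in the deposited table of 32623 Ensembl rat genes. Of these, 33 had a row, and Mcl1, Bbc3 and Hrk were not analysed here. After a filter on low counts, 31 of them were among 15121 genes tested, and Bik and Casp6 were too low to test.

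Brain RNA was compared between 3 libraries whose genotype label is the plasmid pcDNA3.1 alone (vector) and 3 whose label is pcDNA3.1/LINC00894 (LINC00894), a human long non-coding RNA. Ischemia and reperfusion of the brain are named in the series title, but the labels give no ischemia status, brain region, strain, age or sex, and do not say whether each library is a different animal. The p-values rest on the spread between libraries, which may be technical. The design text reports protection of brain tissue by LINC00894, so the question here was whether transcripts of the death machinery differed between the groups.

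Programmed death runs along routes that share parts. In intrinsic apoptosis, BH3-only proteins sense damage, block the anti-apoptotic BCL2 proteins and free BAX and BAK to open the outer mitochondrial membrane, after which cytochrome c and APAF1 activate caspase-9. Death receptors such as FAS instead act through the adaptor FADD and caspase-8, and when caspase-8 is blocked, RIPK1 and RIPK3 activate the membrane-rupturing protein MLKL (necroptosis). In pyroptosis, the NLRP3 inflammasome and its adaptor ASC, encoded by Pycard, activate caspase-1, which cleaves gasdermin D to form membrane pores; in brain this route is best known from microglia. Most of these proteins are switched by binding, cleavage or phosphorylation, so transcript level is only part of their control.

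Summed counts per library ran from 12843875 to 16268464. Summed reads of Kdm5d and Eif2s3y, both Y-linked, were 0 in LINC00894 replicates 1 and 2 and 1498 to 2071 in the other 4 libraries. LINC00894 replicate 3 was therefore not from the same animal as replicates 1 and 2 of its group, and Y-linked reads, which mark male tissue, were present in 3 of 3 vector libraries but 1 of 3 LINC00894 libraries. Sex was thus not balanced between the groups. The tissue label fitted its neuronal markers: the summed level of 10 of them was 6171 to 8933 CPM (counts scaled to library size with TMM factors, not to length) in every library, lowest in LINC00894 replicate 1. Cldn5, an endothelial tight junction gene, was the brain marker listed at 0 in all libraries. The endothelial markers together still summed to 226 to 538 CPM, and why Cldn5 had no counts was not tested. In whole tissue, fewer cells of a type and less RNA per cell cannot be told apart.

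No death gene passed the test between groups. By edgeR's quasi-likelihood test, 0 of the 31 members had a Benjamini-Hochberg adjusted p under 0.05 (range 0.9815 to 0.9999), against 0% of all genes tested, and DESeq2 also called 0 members, against 0.0351% overall. A single member, Casp1, had an unadjusted p under 0.05, with the higher level in LINC00894, where 1.82% of all genes were higher and 2.22% lower at that p. In log2 fold change of LINC00894 over vector, 23 members were above 0 and 8 below, against 51.8% of all genes above 0. The median was 0.10 over the members and 0.012 over all genes. By group, 6 of 10 BCL2 family genes (median 0.04), 10 of 12 genes of the apoptotic caspase machinery (0.06), 5 of 6 p53 targets (0.16) and 6 of 7 lytic death genes (0.64) were above 0, some genes being counted in 2 groups. For 19 of the 31 members, the 95% interval of the fold change lay within 2-fold in both directions, against 72.5% of all genes. A 2-fold change thus lay outside the interval for those 19 members. For the other 12, a change of that size remained within the interval.

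**Figure D1:**
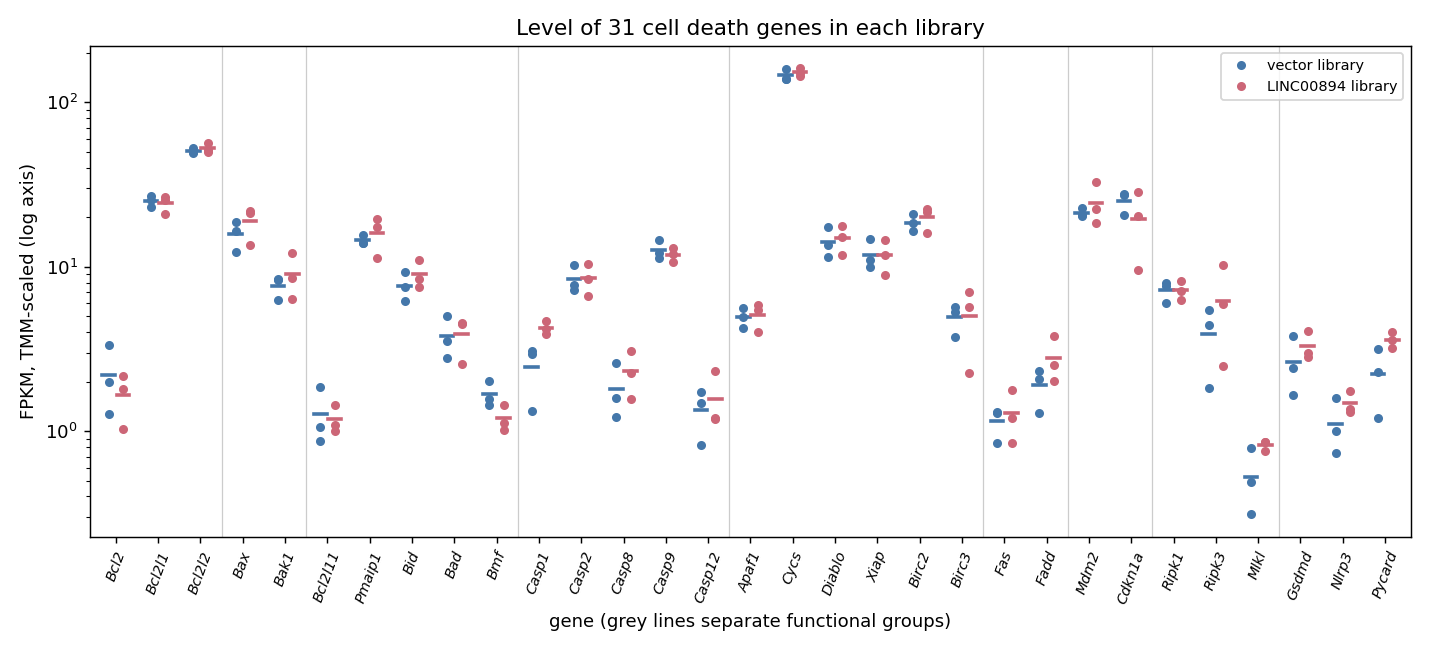
Level of each tested death gene in each library, as FPKM (counts scaled for exonic length and library size) with TMM factors, on a log axis. Points are libraries and short lines are group means (n = 3 each). Cycs is highest, Mlkl is lowest, and the groups lie apart only for Casp1 and, narrowly, Pycard.

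Levels spanned more than 2 orders of magnitude and are given below as FPKM computed from the counts, the table's exonic length and TMM-scaled library sizes, which allows levels to be compared between genes. Cycs, which encodes cytochrome c, an electron carrier of respiration as well as a death signal, was highest at 146 ± 12.5 FPKM with vector and 152 ± 8.76 FPKM with LINC00894 (mean ± SD, n = 3 for every group below). Over all libraries, 11 members had a mean of at least 10 FPKM, 9 lay between 3 and 10 FPKM, and 11 were under 3 FPKM. Nlrp3, Pycard, Gsdmd and Mlkl were among the lowest 11.

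Among the anti-apoptotic proteins, which hold BAX and BAK in check, the abundant members had close group means. Bcl2l2, which encodes BCL-W, stood at 52.8, 49.8 and 49.0 FPKM with vector (replicates 1, 2 and 3, an order kept below) and at 49.6, 56.5 and 51.1 FPKM with LINC00894. These ranges overlapped, and the log2 fold change was 0.05 with a 95% interval of -0.26 to 0.36. Bcl2l1, which encodes BCL-XL, a main survival factor of mature neurons, stood at 25.1 ± 2.04 FPKM with vector and 24.3 ± 2.92 FPKM with LINC00894 (log2 fold change -0.05, interval -0.39 to 0.30). A row on the opposite strand overlaps Bcl2l1 and held 1379 counts over the 6 libraries, and the sources used here do not say whether counting used strand. Bcl2 itself was low and uneven, at 1.28, 1.99 and 3.35 FPKM with vector and 1.79, 2.15 and 1.03 FPKM with LINC00894. Vector replicate 3 was highest and LINC00894 replicate 3 lowest, and the log2 fold change of -0.42 had an interval from -1.36 to 0.52.

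The pore-forming effectors were on average slightly higher in LINC00894, within the spread of the libraries. Bax stood at 16.5, 18.7 and 12.3 FPKM with vector and 21.4, 13.6 and 21.8 FPKM with LINC00894, a log2 fold change of 0.26 (interval -0.29 to 0.80). LINC00894 replicate 2 lay below vector replicates 1 and 2. Bak1 stood at 8.47, 8.32 and 6.25 FPKM with vector and at 12.04, 6.36 and 8.51 FPKM with LINC00894, so LINC00894 replicate 1 was high and its other libraries lay close to the vector range. Its log2 fold change was 0.22 (interval -0.36 to 0.81), and it was -0.05 without LINC00894 replicate 1.

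The ratio of Bax to Bcl2 is often read as a balance of death and survival, and each library gives it free of scaling between libraries. It was 12.9, 9.42 and 3.68 with vector and 11.9, 6.33 and 21.2 with LINC00894. Thus the highest and the lowest value lay in replicate 3 of each group and the other 4 libraries were mixed. The mean log2 ratio was 2.93 ± 0.94 in vector and 3.55 ± 0.87 in LINC00894, a difference of 0.61 with p = 0.5 by a two-sided exact permutation test over 20 arrangements, which cannot give less than 0.1. Without vector replicate 3 the difference was 0.09, without LINC00894 replicate 3 it was 0.18, and without vector replicate 1 and LINC00894 replicate 2 in turn it was 0.99 and 1.05. The ratio of Bax to Bcl2l1 differed by 0.30 on the log2 scale (exact permutation p = 0.3). These and 3 further ratios, of Cycs to Xiap, Ripk3 to Ripk1 and Casp1 to Pycard, were chosen after levels had been seen. Differences of the last 3 were 0.08, 0.59 and 0.09. As single libraries were left out, Cycs to Xiap ran from -0.14 to 0.29 and Casp1 to Pycard from -0.05 to 0.23, so both changed sign. The Ripk3 to Ripk1 difference was 0.21 when LINC00894 replicate 1 was dropped, 0.24 when vector replicate 3 was, and 1.05 with LINC00894 replicate 2 dropped, and Bax to Bcl2l1 ran from 0.12 without vector replicate 3 to 0.49 without vector replicate 2. Benjamini-Hochberg adjusted values over the 5 exact permutation tests were 0.833 to 0.9.

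BH3-only genes, the sensors upstream of BAX and BAK, lay on both sides of 0. Of 5 tested, 3 had a log2 fold change above 0 and 2 below, with a median of 0.04. Bmf, which links loss of attachment and cytoskeletal damage to BCL2 proteins, stood at 1.45, 1.58 and 2.02 FPKM with vector and at 1.45, 1.12 and 1.02 FPKM with LINC00894. The highest LINC00894 library only just reached the lowest vector library, and the log2 fold change was -0.49 (interval -1.21 to 0.22). It stayed below 0 in all 14 alternative settings, between -0.72 and -0.25. Bid, which carries the death receptor signal to mitochondria once caspase-8 cuts it, stood at 7.49, 9.30 and 6.16 FPKM with vector and at 11.1, 7.48 and 8.47 FPKM with LINC00894, a log2 fold change of 0.23 (interval -0.29 to 0.76). The libraries overlapped.

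The other tested sensors lay closer to 0. Pmaip1, which encodes the p53-induced NOXA, stood at 14.5 ± 0.918 FPKM with vector and 16.1 ± 4.26 FPKM with LINC00894 (log2 fold change 0.15, interval -0.32 to 0.62). It was the highest of the BH3-only genes tested in both groups, Bbc3 and Hrk not being among them. Bcl2l11, which encodes BIM, a mediator of neuronal death after loss of trophic support, was low at 1.26 ± 0.53 and 1.18 ± 0.237 FPKM. Its log2 fold change of -0.10 became 0.28 without vector replicate 3. Bad, whose product is held inactive by survival kinases, stood at 3.76 ± 1.12 and 3.87 ± 1.14 FPKM, with a log2 fold change of 0.04. Bik, below the filter, had 3, 5 and 0 counts in vector and 9, 2 and 4 in LINC00894. Its summed counts, 8 and 15, corresponded to 2.07-fold more per effective library size (exact 95% interval 0.824 to 5.64, counting error only).

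**Figure D2:**
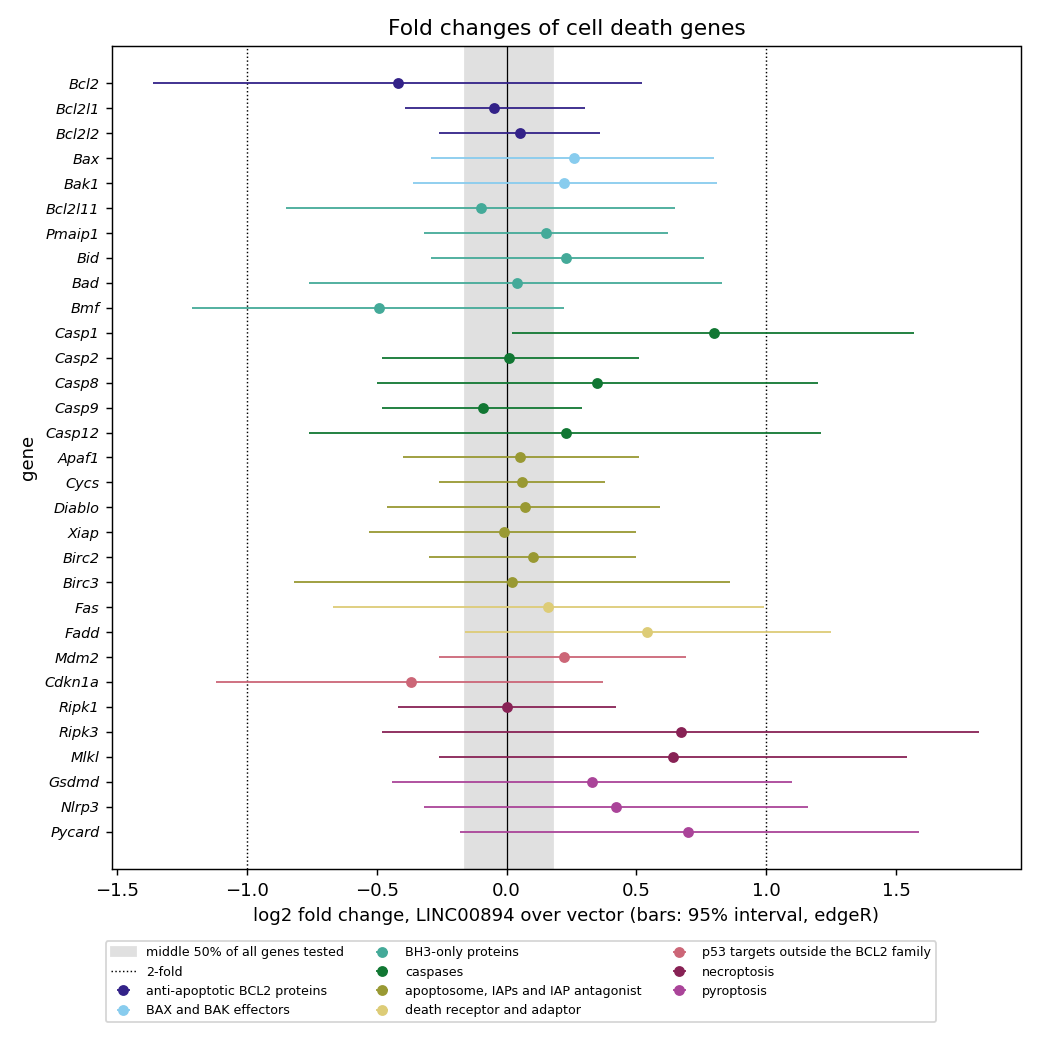
Log2 fold change of LINC00894 over vector for each tested death gene, coloured by functional group, with the 95% interval from edgeR. The grey band holds the middle 50% of all genes tested, from -0.16 to 0.18, and dotted lines mark a 2-fold change. Casp1 is the gene whose interval, 0.02 to 1.57, lies above 0.

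Caspases of the intrinsic route had close group means, and the low inflammatory caspase-1 gene was the member farthest from 0 among those tested. Casp9, the initiator that the apoptosome activates, stood at 12.6 ± 1.69 FPKM with vector and 11.8 ± 1.20 FPKM with LINC00894 (log2 fold change -0.09, interval -0.48 to 0.29). Casp2, an initiator linked to p53 and DNA damage, stood at 8.39 ± 1.63 and 8.48 ± 1.84 FPKM (0.01, interval -0.48 to 0.51). Casp8, the initiator at death receptors, stood at 1.22, 2.60 and 1.59 FPKM with vector and at 3.09, 1.57 and 2.27 FPKM with LINC00894, so the groups overlapped (0.35, interval -0.50 to 1.20). Casp12, linked in rodents to the endoplasmic reticulum, stood at 1.34 ± 0.468 and 1.56 ± 0.655 FPKM (0.23, interval -0.76 to 1.21). Casp6, an effector caspase studied in axon degeneration, failed the filter with 1, 2 and 6 counts in vector and 0, 0 and 1 in LINC00894. With 9 summed counts against 1, the ratio of LINC00894 to vector was 0.123 (95% exact interval 0.0028 to 0.885, counting error only), and the unadjusted p without the filter was 0.0881 by edgeR. In FPKM its groups lay apart with LINC00894 below, although the nearest libraries had 1 count each.

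Genes around the caspases also had close group means. All 6 genes of the apoptosome and of the inhibitor of apoptosis proteins (IAPs) had intervals within 2-fold. Cycs stood at 139, 161 and 139 FPKM with vector and at 144, 152 and 161 FPKM with LINC00894, a log2 fold change of 0.06 (interval -0.26 to 0.38) with overlapping libraries. Apaf1, the scaffold of the apoptosome, stood at 4.92 ± 0.699 and 5.10 ± 0.981 FPKM (0.05), and Diablo, whose product relieves IAP inhibition, at 14.2 ± 3.12 and 14.9 ± 2.97 FPKM (0.07). Xiap, the direct caspase inhibitor, stood at 11.8 ± 2.48 and 11.7 ± 2.80 FPKM (-0.01).

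The ubiquitin ligases of the IAP family also act on RIPK1 downstream of TNF receptors. Birc2, which encodes cIAP1, stood at 16.5, 18.4 and 20.8 FPKM with vector and at 21.5, 15.9 and 22.4 FPKM with LINC00894 (log2 fold change 0.10, interval -0.30 to 0.50), with both extremes in LINC00894. Birc3, which encodes the NF-kB-induced cIAP2, had nearly equal group means but a wide spread in LINC00894: 5.71, 5.31 and 3.74 FPKM with vector against 6.97, 2.26 and 5.71 FPKM. Replicate 2 thus stood 3.08-fold below the highest LINC00894 library. The log2 fold change was 0.02, and it ran from -0.30 to 0.34 as single libraries were left out. Fadd, the adaptor of death receptors, stood at 2.08, 2.33 and 1.29 FPKM with vector and 3.77, 2.54 and 2.00 FPKM with LINC00894. Its LINC00894 replicate 3 lay within the vector range, and the log2 fold change was 0.54 (interval -0.16 to 1.25). Fas, a death receptor and p53 target, stood at 1.30, 1.29 and 0.848 FPKM and at 1.79, 0.851 and 1.20 FPKM, which overlapped (0.16, interval -0.67 to 0.99).

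Targets of p53 gave values on both sides of 0 that depended on single libraries. Of 6 tested (Mdm2, Cdkn1a, Bax, Pmaip1, Fas and Apaf1), 5 had a log2 fold change above 0 and 1 below, with a median of 0.16. Cdkn1a, which encodes the cell cycle inhibitor p21, stood at 27.8, 27.4 and 20.6 FPKM with vector and at 28.4, 9.59 and 20.5 FPKM with LINC00894. LINC00894 replicate 2 stood well below the other 5 libraries. The log2 fold change was -0.37 (interval -1.12 to 0.37), -0.07 without that library, and -0.75 without LINC00894 replicate 1. That last value had an unadjusted p of 0.0421 and an adjusted p of 0.927 by edgeR's quasi-likelihood test. Mdm2, the ubiquitin ligase that removes p53 and is itself its target, stood at 20.2, 20.5 and 22.6 FPKM with vector and at 32.8, 18.3 and 22.6 FPKM with LINC00894 (0.22, interval -0.26 to 0.69). Here LINC00894 replicate 1 was high, and without it the value was -0.05. Leaving out LINC00894 replicate 1 put the median of the 6 targets at -0.03, and leaving out replicate 2 put it at 0.34.

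Of these groups, the lytic death genes had the median farthest from that of all genes. Of 7 tested (Casp1, Pycard, Nlrp3, Gsdmd, Ripk3, Mlkl and Ripk1), 6 had a log2 fold change above 0, and the median was 0.64 against 0.012 over all genes, with 0 members past the adjusted p by edgeR. The median was 0.34 without vector replicate 3, and by library the genes' median deviation from their own means was 0.02, 0.09 and -1.03 (log2) with vector and 0.44, 0.08 and 0.42 with LINC00894. Vector replicate 3 thus stood far below the other libraries, and LINC00894 replicate 2 lay level with vector replicate 2. For 1 of the 7 genes the 95% interval lay within 2-fold either way, against 72.5% of all genes. Among cell type markers, medians were 0.80 for neutrophil, 0.59 for macrophage, 0.35 for endothelial and 0.34 for microglial markers. Medians of the neuronal, astrocyte, oligodendrocyte, pericyte and smooth muscle, and choroid plexus and ependyma markers lay from -0.44 to -0.11.

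Casp1 (ENSRNOG00000007372), the protease that matures interleukin-1 beta and interleukin-18, had 58, 76 and 31 counts in vector and 97, 77 and 87 in LINC00894. Its levels were 2.93, 3.08 and 1.33 FPKM with vector and 4.67, 3.90 and 4.15 FPKM with LINC00894, so every LINC00894 library lay above every vector library. The log2 fold change was 0.80 (SE 0.34, interval 0.02 to 1.57), with an unadjusted p of 0.0448 and 0.9815 by edgeR after Benjamini-Hochberg adjustment. Without vector replicate 3 it was 0.48 with an unadjusted edgeR p of 0.115. That p was 0.0505 without vector replicate 1, and 0.105, 0.0701 and 0.0891 without LINC00894 replicates 1, 2 and 3, by the same edgeR fit. Without vector replicate 2 it was 0.0342. With presence of Y-linked counts as a covariate, the log2 fold change was 0.76. The LINC00894 libraries without Y-linked counts drop out of that contrast, which sets LINC00894 replicate 3 alone against the vector libraries. Pycard (ENSRNOG00000019675), the adaptor that recruits caspase-1, had 38, 34 and 17 counts in vector and 45, 38 and 51 in LINC00894. It stood at 3.17, 2.27 and 1.20 FPKM with vector and at 3.58, 3.18 and 4.02 FPKM with LINC00894, so the groups did not overlap, although the nearest libraries of each group had 38 counts both. The log2 fold change was 0.70 (SE 0.39, interval -0.18 to 1.59), and 0.39 without vector replicate 3. These were the 2 tested members of 31 whose groups did not overlap with LINC00894 above, where 4.98% of all genes lay apart in that direction, and 0 tested members lay apart below, where 3.88% of all genes did.

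**Figure D3:**
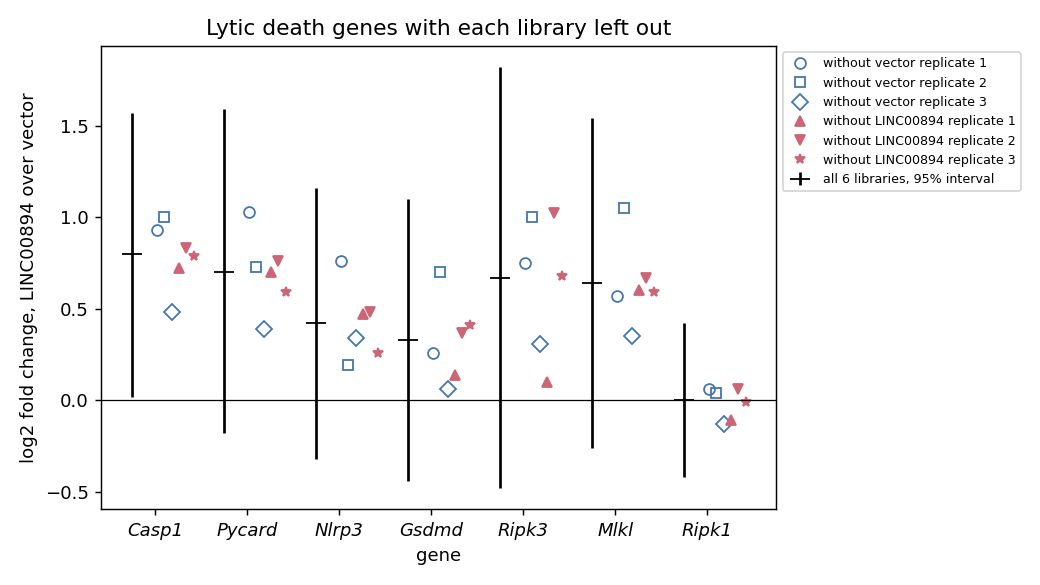
Log2 fold change of LINC00894 over vector for the 7 lytic death genes. Black marks with bars show the value and 95% interval from all 6 libraries, and symbols show the value with each library left out. Without vector replicate 3 the values of Casp1, Pycard, Ripk3, Mlkl and Gsdmd were nearer to 0, and Ripk3 was at 0.10 without LINC00894 replicate 1.

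The promoters of Casp1 and Pycard are shown because these were the tested members whose groups lay apart. RefSeq's promoter table for GRCr8, which holds 250 bases before and 50 bases after the start of a gene, had entries for 29 of the 36 members. The Casp1 window lies at chr8:10872580-10872879 on the plus strand and the Pycard window at chr1:192033370-192033669 on the minus strand, and both are written 5′ to 3′ along the gene. Capitals mark matches on either strand to GAGGAA, the core of sites for the myeloid factor PU.1, and to TATAAA, the TATA box.
Casp1: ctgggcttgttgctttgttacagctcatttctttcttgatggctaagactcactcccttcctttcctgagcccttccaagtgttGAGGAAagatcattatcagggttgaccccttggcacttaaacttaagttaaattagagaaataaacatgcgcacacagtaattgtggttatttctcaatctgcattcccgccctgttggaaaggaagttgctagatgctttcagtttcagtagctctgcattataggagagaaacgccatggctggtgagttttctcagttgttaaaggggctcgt
Pycard: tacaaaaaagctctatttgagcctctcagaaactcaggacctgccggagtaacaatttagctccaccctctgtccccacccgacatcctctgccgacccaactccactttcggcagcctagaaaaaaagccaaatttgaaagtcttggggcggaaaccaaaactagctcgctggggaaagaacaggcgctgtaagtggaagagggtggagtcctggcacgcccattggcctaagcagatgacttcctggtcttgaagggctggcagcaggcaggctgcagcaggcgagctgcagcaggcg
The Casp1 window held GAGGAA from base -166, counted from the start site. Neither of these motifs was in the Pycard window, and TATAAA was not in that of Casp1. Of 33469 promoter windows in the table, 27.6% held GAGGAA and 14.2% held TATAAA. The core of the interferon-stimulated response element was also searched and matched in the Casp1 window, on the opposite strand, but not in that of Pycard, and an NF-kB site matched in neither; their shares over all windows are not given here. A match describes the letters only and was not related to the levels.

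The remaining pyroptosis genes overlapped between groups. Nlrp3, the inflammasome sensor, stood at 1.58, 0.732 and 0.997 FPKM with vector and at 1.37, 1.31 and 1.74 FPKM with LINC00894 (log2 fold change 0.42, interval -0.32 to 1.16). Vector replicate 1 lay above LINC00894 replicates 1 and 2. Gsdmd, which encodes the pore-forming gasdermin D, stood at 2.62 ± 1.08 and 3.29 ± 0.689 FPKM (0.33, interval -0.44 to 1.10), and at 0.06 on the log2 scale without vector replicate 3.

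Necroptosis genes differed in how far they spread. Mlkl, the executioner, was the lowest member tested in FPKM, with 20, 40 and 15 counts in vector and 37, 31 and 37 in LINC00894. Its level was 0.489, 0.783 and 0.311 FPKM with vector and 0.862, 0.761 and 0.855 FPKM with LINC00894. The LINC00894 libraries lay close together, vector replicate 2 reached among them, and the log2 fold change was 0.64 (interval -0.26 to 1.54). Ripk3, the kinase that activates MLKL, stood at 4.40, 5.48 and 1.84 FPKM with vector and at 10.3, 2.48 and 5.91 FPKM with LINC00894. Its LINC00894 libraries spread 4.14-fold, the widest of any member tested, and replicate 2 lay below vector replicates 1 and 2. The log2 fold change was 0.67 (interval -0.48 to 1.82), 0.10 without LINC00894 replicate 1 and 1.02 without LINC00894 replicate 2. Ripk1, which stands at the branch between survival, apoptosis and necroptosis, stood at 7.21 ± 1.02 and 7.21 ± 0.970 FPKM (interval -0.42 to 0.42).

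Markers of the cells in which inflammasome genes are known were also uneven between libraries. Of 13 microglial markers tested of 14, 11 had a log2 fold change above 0, with a median of 0.34, and their summed level was 368 to 536 CPM in vector, lowest in replicate 3, and 552 to 658 CPM in LINC00894. Siglech was listed at 0 in at least 1 library. Aif1, which encodes IBA1, stood at 5.20, 5.92 and 4.93 FPKM with vector and at 7.54, 8.80 and 12.6 FPKM with LINC00894 (log2 fold change 0.85), whereas Csf1r and Cx3cr1 had values of 0.07 and 0.02. For 8 macrophage markers, 5 of 6 tested above 0, the summed level was 21.0 to 39.6 CPM in vector and 29.7 to 86.6 CPM in LINC00894, highest in replicate 1, with Ms4a7 at 0 in at least 1 library. The 7 neutrophil markers, 4 of 4 tested above 0, summed to 10.3 to 30.6 CPM in vector and 16.5 to 62.1 CPM in LINC00894, with Mpo and Ngp at 0 in at least 1 library. Endothelial markers, 7 of 7 tested above 0, summed to 226 to 345 CPM in vector and 246 to 538 CPM in LINC00894, with Cldn5 at 0 throughout. In each of these 4 lists vector replicate 3 was lowest within its group. It was also lowest there for astrocyte (3206 CPM against 4553 and 5097), pericyte and smooth muscle, and choroid plexus and ependyma markers. It was highest for oligodendrocyte markers (10720 CPM against 7558 and 4696), and for neuronal and T cell markers it lay between the others. The part of microglia, macrophages, neutrophils and endothelial cells in the values of Casp1, Pycard, Ripk3 and Mlkl was not tested.

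**Figure D4:**
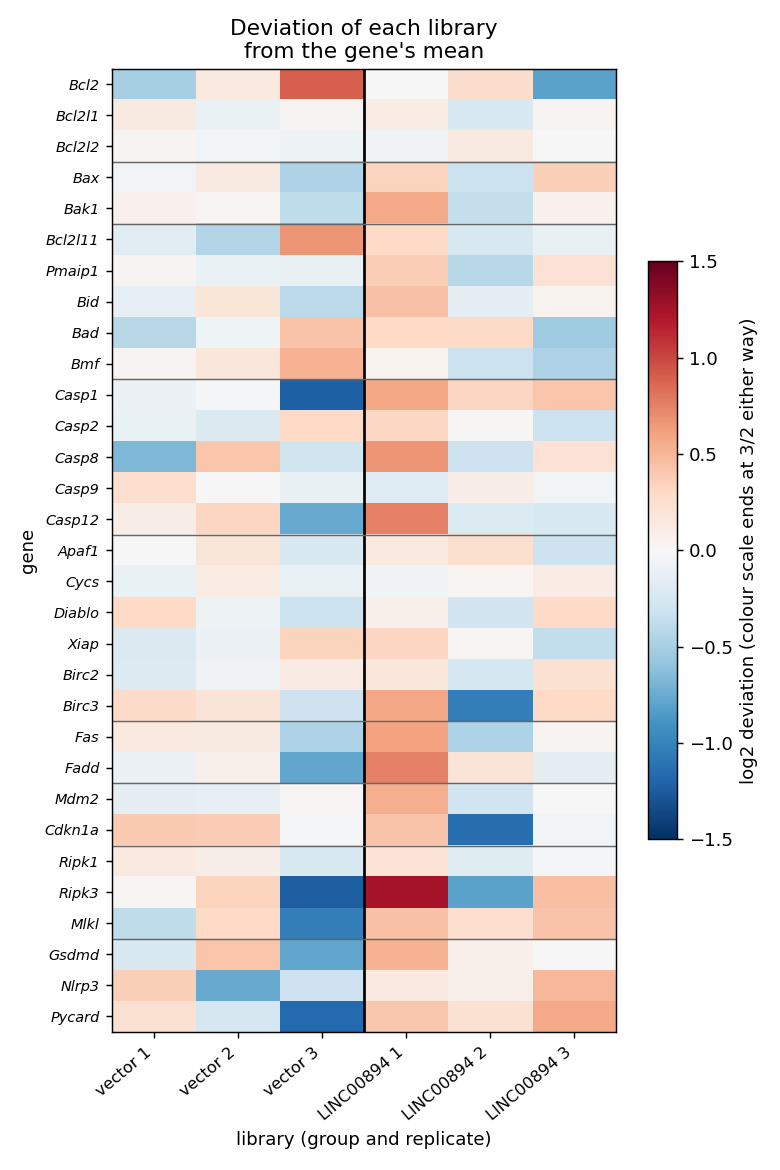
Deviation of each library from the gene's mean log2 level, for the tested death genes by functional group. Vector replicate 3 is lowest in 15 of 31 genes and LINC00894 replicate 1 highest in 16, and Cdkn1a and Birc3 are lowest in LINC00894 replicate 2.

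Libraries of the same group differed from each other in these genes. Across the 31 members, LINC00894 replicate 1 was the highest of the 6 libraries for 16 and vector replicate 3 the lowest for 15, whereas over all genes tested these libraries were highest and lowest for 22.2% and 23.5%. The highest library exceeded the lowest of its own group by a median of 1.52-fold in vector and 1.50-fold in LINC00894 over the members, against 1.36-fold and 1.44-fold over all genes. By more than 2-fold it did so for 10 members in vector, or 32.3% against 16.3% of all genes, and for 5 in LINC00894, or 16.1% against 17.02%. The share in LINC00894 was thus close to that of all genes. In Birc3, Fas, Cdkn1a and Ripk3, LINC00894 replicate 2 was the library more than 2-fold below the highest of its group.

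Other genes of these pathways were taken from lists by known role, also chosen with earlier results of these data known. Of 68 tested, 0 passed edgeR's adjusted p, and at an unadjusted p under 0.05 there were 3 higher and 1 lower, where 1.82% of all genes were higher and 2.22% lower. Their median log2 fold change was 0.09, and 47 of the 68 were above 0, against 51.8% of all genes. Among further caspases and their substrates 8 of 10 were above 0, in further p53 pathway genes 12 of 22, and in further IAP and death receptor genes 9 of 15. All 13 further necroptosis and pyroptosis genes were above 0, with a median of 0.14 and values from 0.03 to 0.62, and 0 of them had an unadjusted edgeR p under 0.05. By library, their median deviation from their own means was -0.13, -0.02 and -0.08 (log2) with vector. It was 0.39, -0.12 and 0.16 with LINC00894, so replicate 2 there lay close to vector replicate 1. In further BCL2 family genes 5 of 8 were above 0, with a median of 0.08.

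The 4 at an unadjusted p under 0.05 were Bcl2a1, Casp4, Tnfsf10 and Tnfaip3. Casp4, the caspase that senses intracellular lipopolysaccharide, stood at 7.14, 4.46 and 5.90 FPKM with vector and at 10.2, 7.43 and 8.48 FPKM with LINC00894, so the groups lay apart (log2 fold change 0.58, SE 0.26). Bcl2a1, an anti-apoptotic gene of leukocytes, stood at 4.08, 5.05 and 2.20 FPKM and at 8.66, 4.10 and 10.9 FPKM, which overlapped (1.06, SE 0.43). Tnfsf10, the death ligand TRAIL, stood at 0.523, 0.306 and 0.512 FPKM and at 0.613, 1.03 and 0.893 FPKM (0.92, SE 0.37). Tnfaip3, which encodes the NF-kB inhibitor A20 that also restrains RIPK1 and RIPK3, stood at 8.22, 8.67 and 7.76 FPKM with vector and at 7.56, 3.27 and 4.36 FPKM with LINC00894 (-0.70, SE 0.29). Each of the 4 had an adjusted p of 0.9815 by edgeR. The groups also lay apart for Tnfsf10, with LINC00894 above, and for Tnfaip3, with LINC00894 below. Of the 68 further genes tested, 4 lay apart with LINC00894 above and 3 below, where 4.98% and 3.88% of all genes did.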

How the data were processed

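Poly(A) RNA of rat brain was sequenced as paired ends, per the labels' protocols, in 3 vector and 3 LINC00894 libraries; the genotype label gave the groups. Replicate numbers follow accession order and pair nothing. The authors deposited raw counts and FPKM for each gene in each library, per the file headers. Deposited FPKM values matched counts divided by exonic length and summed counts to within 0.005. HISAT2 2.0.1 and DESeq2 appear, with no role, in the submitters' processing notes. The counting tool, strand setting, annotation and build were not given in the sources used here. Rows without a symbol held 0.0236% of counts and stayed in the tests.

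Low counts were removed by filterByExpr (minimum count 10, minimum total 15), which does not require every library to reach the minimum count. The rest were scaled with TMM factors and tested with edgeR 4.0.16 in R 4.3.3. The test was the quasi-likelihood F-test, with no covariates, Benjamini-Hochberg adjustment over all 15121 genes and a threshold of 0.05. Printed FPKM were recomputed with TMM-scaled library sizes. Standard errors and 95% intervals come from that F-test. Ratios used exact permutation tests. The fits were tested on simulated data. Alternatives were DESeq2 1.42.0, limma 3.58.1 on log2 FPKM, other filters and scalings, each library left out, and presence of Y-linked counts as a covariate. With that covariate, LINC00894 replicate 3 is the only LINC00894 library compared with vector. All 36 members are named; values per library are given for members with an unadjusted p under 0.05, with groups apart, or with the 2 smallest p in their group, and for Birc3 and the low genes, chosen after their values were seen. Members, lists and tests were chosen with earlier results of these data known. Promoter matches of the interferon-stimulated response element and the NF-kB site came from a separate search of the same windows and are not capitalised. Plots were drawn with matplotlib 3.10.9.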

Additional observations from a re-analysis of the deposited data

How the results depend on the processing

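Over 14 alternatives 0 members passed an adjusted p of 0.05. Genes called over the whole table numbered 0 by edgeR, 8 by DESeq2, 8 without a filter on low counts, and 0 to 9 as single libraries were left out. Members at an unadjusted p under 0.05 numbered 1 by edgeR (Casp1) and 2 with limma on log2(FPKM + 1) or log2(FPKM + 0.1) (Casp1 and Pycard). They numbered 0 to 2 as single libraries were left out. Casp1 was among them in 8 of the 14 alternatives, Pycard in 3, and Mlkl, Cdkn1a and Ripk3 in 1 each. The causes were not tested. The median log2 fold change ran from -0.07 to 0.11 for the BCL2 family, -0.02 to 0.20 for the apoptotic caspase machinery, -0.03 to 0.34 for p53 targets and 0.33 to 0.75 for lytic death genes. Scaling by library totals alone moved the median of all genes from 0.012 to 0.08. Of 31 members, 12 kept the sign of their log2 fold change, rounded to 2 decimals, in all alternatives, 10 above 0 and 2 below (Bmf and Cdkn1a). Bcl2 was not counted because it rounded to 0 without vector replicate 3, and it was below 0 in the other alternatives. The share of all genes that kept their sign is not given here. Low counts limit Mlkl, Pycard, Casp12, Casp6 and Bik most. No paired analysis was possible because the labels give the groups no shared replicate numbers.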
